A study of Homo sapiens with 10 samples.

Results

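Prostaglandin synthesis and reception were followed through 10 genes, PLA2G4A, PTGS1, PTGS2, PTGES, PTGES2, PTGES3, PTGIS, HPGD, PTGER2 and PTGER4, in irradiated and control human tubular cells. The members were taken by gene symbol, without a rule on their values, although earlier results of these data were known when they were chosen. Each member matched 1 of the 61587 genes in the count table. RPTEC/TERT1 cells are renal proximal tubule epithelial cells made immortal by telomerase. The study's design text gives this line for all samples, although the number that ends the cell line label differs from sample to sample. Bulk RNA-seq of polyA RNA was available for 5 Control samples, which were taken to the irradiator but not exposed, and for 5 Irradiated samples given 10 Gy of gamma irradiation from a caesium source. RNA was collected at day 7, so the early response to irradiation is not covered. Cells of both groups grew in the same medium, which held prostaglandin E1 and hydrocortisone besides epidermal growth factor, insulin, transferrin, selenium, triiodothyronine and geneticin. Nothing in the labels says that the replicates were separate cultures, so p-values measure the spread between these samples, which may in part be technical.

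Prostaglandins are lipid mediators made from arachidonate, which phospholipases release from membranes. Cyclooxygenases turn arachidonate into prostaglandin H2, terminal synthases turn that into prostaglandin E2, prostacyclin and their relatives, and a dehydrogenase inactivates the products. In the kidney these lipids act on blood flow, salt and water transport and inflammation, and the EP2 and EP4 receptors for prostaglandin E2 raise cyclic AMP.

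Total counts on genes ranged from 78081911 to 131555873 in the control samples and from 66269311 to 101594948 in the irradiated samples. Levels are given as CPM, counts scaled to a common library size by TMM, and differences as fitted log2 fold changes of irradiated against control. Markers of renal epithelium were abundant, at a summed 2080 to 2480 CPM in control and 2110 to 2760 CPM in irradiated samples. Of 8 proximal tubule markers 5 had at least 200 counts over the 10 samples, whereas LRP2, the endocytic receptor megalin, had 17 counts, HNF4A 12 and the phosphate transporter gene SLC34A1 86. The label of proximal tubule cells therefore rested on ANPEP, MME, GGT1, CUBN and AQP1, and SLC12A1, a transporter gene of the thick ascending limb, gave nearly all of a summed 99.9 to 400 CPM in control and 17.3 to 171 CPM in irradiated samples, with UMOD at 0.

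The stretches upstream of the start sites are shown for the inducible cyclooxygenase gene PTGS2, which was nearly silent here, and for the 3 members called higher after irradiation, PTGS1, HPGD and PTGER4. Each line gives the 250 bases before a start site in RefSeq on GRCh38.p14, written 5′ to 3′ on the strand of the gene, and PTGS1 and HPGD have 2 start sites each.
PTGS2, chr1:186680424-186680673, minus strand: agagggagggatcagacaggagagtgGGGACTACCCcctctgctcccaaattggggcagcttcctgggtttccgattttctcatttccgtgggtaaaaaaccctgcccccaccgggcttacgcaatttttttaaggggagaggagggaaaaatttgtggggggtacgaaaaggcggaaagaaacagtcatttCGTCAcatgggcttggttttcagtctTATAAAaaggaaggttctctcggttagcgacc
PTGS1, first start, chr9:122370283-122370532, plus strand: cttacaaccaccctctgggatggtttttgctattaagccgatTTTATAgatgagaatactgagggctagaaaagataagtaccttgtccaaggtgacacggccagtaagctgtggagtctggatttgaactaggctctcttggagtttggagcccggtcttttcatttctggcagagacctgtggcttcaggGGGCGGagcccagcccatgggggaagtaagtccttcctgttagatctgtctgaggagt
PTGS1, second start, chr9:122375052-122375301, plus strand: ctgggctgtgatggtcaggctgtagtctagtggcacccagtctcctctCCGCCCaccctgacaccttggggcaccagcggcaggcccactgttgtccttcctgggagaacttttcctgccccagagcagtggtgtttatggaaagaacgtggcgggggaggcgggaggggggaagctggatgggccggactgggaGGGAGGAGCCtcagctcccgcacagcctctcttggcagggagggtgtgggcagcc
HPGD, outer start, chr4:174522894-174523143, minus strand: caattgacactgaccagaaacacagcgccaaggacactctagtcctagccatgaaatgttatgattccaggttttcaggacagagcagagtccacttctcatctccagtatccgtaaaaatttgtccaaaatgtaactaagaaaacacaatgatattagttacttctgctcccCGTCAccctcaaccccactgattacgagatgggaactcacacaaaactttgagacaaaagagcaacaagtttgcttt
HPGD, inner start, chr4:174522489-174522738, minus strand: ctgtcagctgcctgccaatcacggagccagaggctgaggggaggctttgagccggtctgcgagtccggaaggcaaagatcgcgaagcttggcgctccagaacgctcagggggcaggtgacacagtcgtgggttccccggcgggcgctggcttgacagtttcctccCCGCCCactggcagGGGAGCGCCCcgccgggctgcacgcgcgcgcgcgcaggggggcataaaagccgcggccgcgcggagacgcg
PTGER4, chr5:40679665-40679914, plus strand: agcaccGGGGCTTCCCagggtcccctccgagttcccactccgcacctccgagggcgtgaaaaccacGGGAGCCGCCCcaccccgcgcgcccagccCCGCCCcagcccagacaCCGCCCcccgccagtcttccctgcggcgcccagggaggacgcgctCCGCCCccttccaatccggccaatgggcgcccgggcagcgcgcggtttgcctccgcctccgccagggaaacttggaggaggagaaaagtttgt
Capitals mark matches on either strand to TATAAA (a core promoter element), TGACG (core of the cyclic AMP response element), TGANTCA (AP-1), CACGTG (E-box), GGGCGG (GC box) and, for NF-kB, GGGA and CC with 4 bases of any kind between them, and neighbouring or overlapping matches run together.
The full cyclic AMP response element TGACGTCA was also searched, and its matches would contain the core.

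PTGS2 held TATAAA at bases -32 to -27 from its start, the reverse complement of TGACG at -58 to -54 and an NF-kB match, GGGACTACCC, at -224 to -215. Such matches are common. Among 35116 RefSeq promoter windows of this length, 10.7% held TATAAA, 21.2% TGACG, 22.6% the NF-kB letters and 42.6% GGGCGG. AP-1 letters were found in 6.57% of these windows, the E-box in 6.34% and TGACGTCA in 1.65%. The 3 genes called higher each held a GC box and an NF-kB match in at least 1 window. The window of PTGES3, which was not called, also held both, and windows of PTGES, PTGES2 and PTGER2, not called either, held GC boxes. PTGER4 held 4 GC boxes on the opposite strand and 2 NF-kB matches, and the inner HPGD start and the second PTGS1 start held 1 of each. The outer HPGD start held only the reverse complement of TGACG, and the first PTGS1 start a GC box and the reverse complement of TATAAA. These are matches of letters only, and no binding was measured.

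Of the 10 genes, 8 had the 200 counts over all samples that the test required, and PTGS2 and PTGIS did not. Irradiation was followed by higher mRNA of PTGS1, the constitutive cyclooxygenase, of HPGD, the dehydrogenase that inactivates prostaglandins, and of PTGER4, the EP4 receptor. The PTGER4 call was lost without replicate 1, 3, 4 or 5, which left 2 members higher. With edgeR's quasi-likelihood test and Benjamini-Hochberg adjustment, 3 of the 8 tested genes (37.5%) were higher and 0 were lower, beside 23.9% higher and 22.7% lower among all 19006 genes tested. The count of 0 lower was also 0 at an unadjusted p under 0.05 and with DESeq2. The median log2 fold change of the 8 genes was 0.20, against -0.0098 over all tested genes, and 2 of the 8 had all irradiated samples above all control samples, against 14.6% of all genes. In bulk RNA, fewer cells of a kind and less RNA per cell cannot be told apart.

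**Figure D1:**
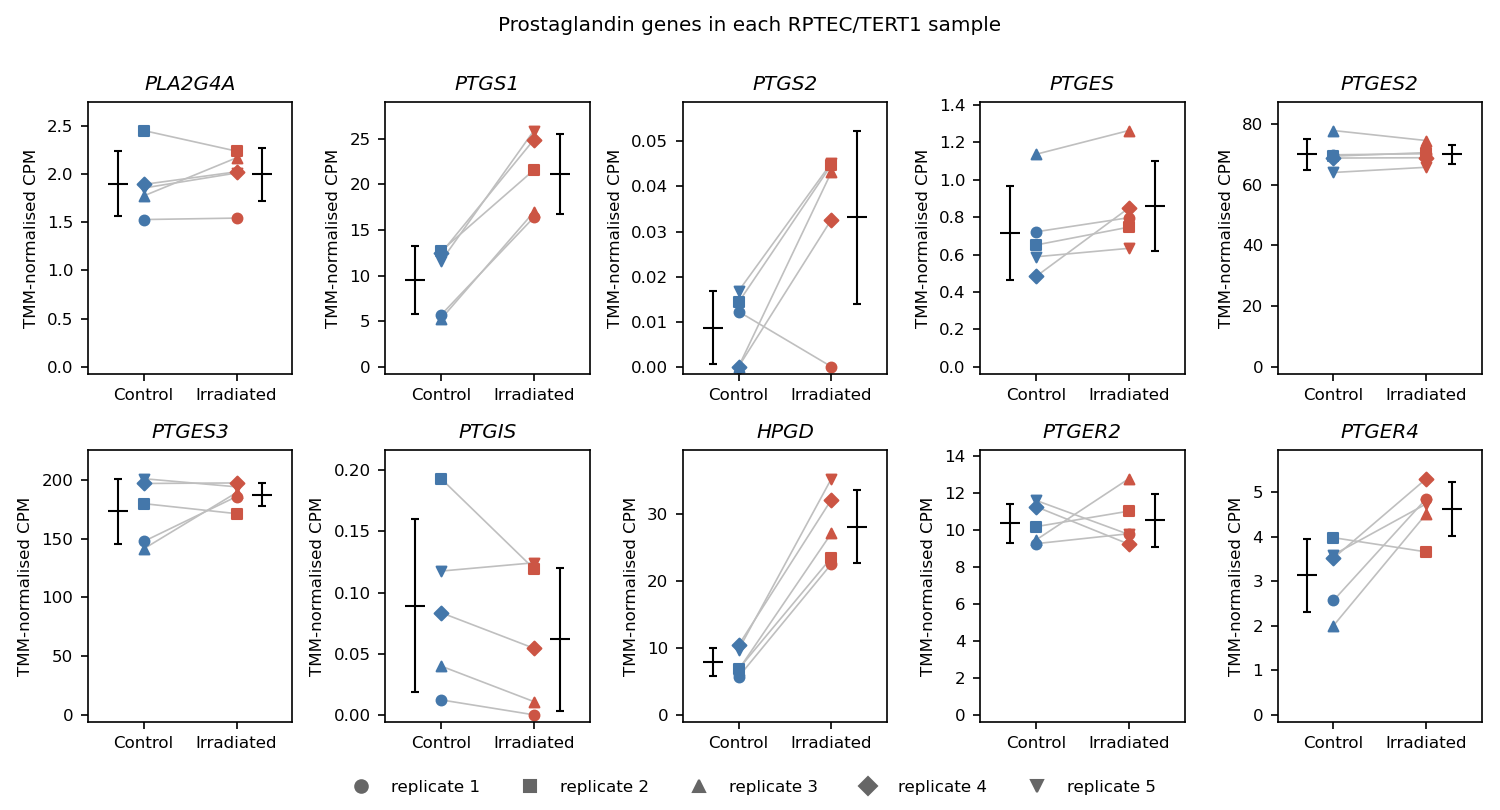
TMM-normalised CPM (y axis, from 0, a separate scale for each gene) of the 10 prostaglandin genes in the 5 control and 5 irradiated samples, with 1 symbol per replicate number, grey lines joining samples of the same number, and black bars giving the mean and SD. All irradiated samples lie above all control samples for PTGS1 and HPGD, and the groups overlap for the other 8 genes.

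Release of arachidonate was represented by PLA2G4A, the calcium-dependent cytosolic phospholipase A2, at chr1:186828949-186988981 on the plus strand of GRCh38. PLA2G4A stood at 1.53, 2.45, 1.77, 1.89 and 1.86 CPM in control replicates 1 to 5 and at 1.54, 2.24, 2.17, 2.03 and 2.01 CPM in irradiated replicates 1 to 5. The groups overlapped almost completely, with replicate 1 lowest in both and replicate 2 highest in both. Its log2 fold change was 0.08 (SE 0.10, 95% confidence interval -0.15 to 0.30, edgeR adjusted p = 0.54), and 4 of 5 pairs were higher.

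The constitutive cyclooxygenase gene PTGS1 (chr9:122370530-122395703, plus strand) carried nearly all cyclooxygenase counts. PTGS1 measured 5.69, 12.7, 5.24, 12.5 and 11.6 CPM in the control replicates and 16.4, 21.6, 17, 24.9 and 25.9 CPM in the irradiated replicates, means of 9.53 ± 3.74 and 21.2 ± 4.39 CPM (SD, n = 5). Every irradiated sample lay above every control sample, and replicates 1 and 3 were the lowest of both groups. PTGS1 rose 2.33-fold (95% confidence interval 1.88 to 2.89, log2 fold change 1.22, SE 0.13, edgeR adjusted p = 0.000307), in 5 of 5 pairs. Genes both called higher and more than 2-fold higher made up 5.26% of those tested.

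PTGS2, the inducible cyclooxygenase (chr1:186671791-186680922, minus strand), was close to the limit of detection. Control replicates 1 to 5 held 1, 2, 0, 0 and 2 PTGS2 counts, and irradiated replicates 1 to 5 held 0, 3, 4, 3 and 4. This came to 5 counts in all control samples, or 0.00936 CPM before TMM scaling (95% exact Poisson interval 0.00304 to 0.0218), and 14 in all irradiated samples, or 0.0309 CPM (0.0169 to 0.0519). The intervals cover counting error only, and their overlap is not a test of the difference. Of the 10 samples 3 held no PTGS2 count. PTGS2 was not tested at the 200-count minimum. With the minimum lowered to 1 count, its log2 fold change was 1.78 (SE 1.0, edgeR adjusted p = 0.272), so a difference was not detectable in this fit. PTGS2 made up 0.091% of the 5492 counts on both cyclooxygenase genes in the control samples (exact binomial interval 0.0296% to 0.212%) and 0.152% of 9235 in the irradiated samples (0.0829% to 0.254%). The antisense gene PACERR at the PTGS2 promoter held 4 counts. PTGS2 and PLA2G4A lie 148 kb apart on chromosome 1. PLA2G4A did not pass the test, and PTGS2 was not in it at the 200-count minimum.

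Proteins that bind PTGS2 mRNA and act on its stability or translation were represented by 5 genes. With edgeR 1 of 5 (20%) was lower and 0 were higher, beside 22.7% lower and 23.9% higher among all tested genes. The count of higher genes was also 0 at an unadjusted p under 0.05 and with DESeq2. The lower gene was KHSRP, which promotes decay of AU-rich mRNAs, at 305 ± 12.8 CPM in control and 235 ± 7.02 CPM in irradiated samples (SD, n = 5, log2 fold change -0.38, SE 0.04, edgeR adjusted p = 0.000253). All 5 irradiated samples were below all control samples for KHSRP, as for 12.0% of all tested genes. ZFP36, ZFP36L1, ELAVL1 and TIA1 did not pass the threshold.

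Among the terminal synthases of prostaglandin E2, the inducible microsomal enzyme PTGES (chr9:129738331-129753042, minus strand) was the scarcest. PTGES measured 0.722, 0.651, 1.14, 0.483 and 0.588 CPM in control and 0.797, 0.747, 1.26, 0.849 and 0.633 CPM in irradiated replicates. Replicate 3 was the highest of both groups, the groups overlapped, and each irradiated sample was above the control sample of its own number. The log2 fold change of 0.28 did not pass the threshold (SE 0.14, 95% confidence interval -0.05 to 0.60, edgeR adjusted p = 0.14), and the interval reaches from a fold of 0.968 to 1.52.

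PTGES2, the second membrane-associated E synthase (chr9:128120693-128128462, minus strand), had the narrowest interval of the 8 tested members. Its control values were 69.8, 69.4, 77.8, 68.7 and 64.0 CPM and its irradiated values 70.1, 70.5, 74.5, 68.8 and 65.7 CPM. The groups coincided, with replicate 3 highest and replicate 5 lowest in both, and the 95% interval of the log2 fold change ran from -0.08 to 0.09 (edgeR adjusted p = 0.973). PTGES3 (chr12:56663341-56688408, minus strand) encodes the cytosolic E synthase, also known as p23, a cochaperone of Hsp90, and was the most abundant member. PTGES3 measured 148, 180, 141, 197 and 201 CPM in control and 186, 171, 189, 197 and 194 CPM in irradiated replicates. Control replicates 1 and 3 stood below all the other samples. The log2 fold change was 0.13 (SE 0.08, 95% confidence interval -0.07 to 0.32, edgeR adjusted p = 0.246), with 3 of 5 pairs higher. A processed copy, PTGES3P1, held 678 counts beside 179239 on PTGES3, so little was assigned to it, but reads that the copies share cannot be placed.

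PTGIS, which makes prostacyclin and is best known from vessel walls (chr20:49503874-49568137, minus strand), was the other gene below the 200-count minimum. Control replicates 1 to 5 held 1, 27, 4, 9 and 14 PTGIS counts and irradiated replicates held 0, 8, 1, 5 and 11. Replicates 1 and 3 were lowest in both groups. The group rates before TMM scaling were 0.103 CPM in control (95% exact Poisson interval 0.0776 to 0.134) and 0.0553 CPM in irradiated samples (0.0358 to 0.0816), intervals that cover counting error only and not the spread between replicates. With the minimum lowered to 1 count, the log2 fold change was -0.61 (SE 0.43, edgeR adjusted p = 0.439), and a difference was not detectable.

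HPGD (chr4:174490175-174523154, minus strand) oxidises prostaglandin E2 and related prostanoids to inactive keto forms, and it had the largest log2 fold change of the 8 tested members. HPGD measured 5.69, 6.84, 6.74, 10.4 and 9.74 CPM in control and 22.5, 23.5, 27.1, 32.2 and 35.3 CPM in irradiated replicates, means of 7.88 ± 2.06 and 28.1 ± 5.50 CPM (SD, n = 5). The lowest irradiated sample was above the highest control sample, and replicates 4 and 5 were the highest of both groups. HPGD rose 3.61-fold (95% confidence interval 3.22 to 4.04, log2 fold change 1.85, SE 0.07, edgeR adjusted p = 8.62e-06), in 5 of 5 pairs. An unnamed long non-coding gene on the opposite strand covers 5.68% of the HPGD exon length and held 12 counts. After each group's mean was removed, the genes whose log2 CPM followed HPGD most closely over the 10 samples were KRR1 (Pearson r = 0.98), TAF2 (0.97) and YME1L1 (0.96) out of 12958 genes. These correlations are descriptions over samples that share libraries and depth.

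Of the receptors for prostaglandin E2 that raise cyclic AMP, EP4 passed the test and EP2 did not. PTGER2, the EP2 receptor (chr14:52314305-52328598, plus strand), measured 9.26, 10.2, 9.46, 11.3 and 11.6 CPM in control and 9.80, 11, 12.8, 9.23 and 9.76 CPM in irradiated replicates. The groups overlapped, 3 of 5 pairs were higher, and the log2 fold change was 0.02 (SE 0.11, 95% confidence interval -0.24 to 0.28, edgeR adjusted p = 0.906). PTGER4, the EP4 receptor (chr5:40679915-40693735, plus strand), measured 2.57, 3.98, 2.0, 3.52 and 3.6 CPM in control and 4.85, 3.66, 4.51, 5.30 and 4.74 CPM in irradiated replicates. The groups overlapped through replicate 2, whose irradiated sample was below its control sample, while the other 4 pairs were higher. PTGER4 rose 1.5-fold (95% confidence interval 1.13 to 2.0, log2 fold change 0.59, SE 0.18, edgeR adjusted p = 0.0281). This call was lost without replicate 1 (adjusted p = 0.0969), 3 (0.0572), 4 (0.0756) or 5 (0.0583), and at 3824 counts it is among the scarcer tested members. The TTC33 gene lies on the opposite strand there, with no exon of it over PTGER4 exons.

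Control replicates 1 and 3 also differed from the other control samples in genes of dividing cells, measured as a sum over 8 proliferation markers. The sum was 189, 529, 178, 567 and 528 CPM in control and 89.8, 58.5, 101, 99.8 and 80.0 CPM in irradiated replicates. All irradiated samples were lower, and among control samples replicates 1 and 3 were lowest in this sum. The same 2 control samples were the lowest for PTGS1, HPGD, PTGER4, PTGER2, PLA2G4A, PTGES3 and PTGIS, but not for PTGS2, PTGES or PTGES2. With pairs 2, 4 and 5 only, the log2 fold change was 0.96 for PTGS1 (edgeR adjusted p = 0.000197), 1.74 for HPGD (adjusted p = 1.32e-05) and 0.28 for PTGER4 (adjusted p = 0.158). PTGS1 and HPGD thus kept their call in these 3 pairs and PTGER4 did not. So 2 of the 8 tested members were higher there, beside 3995 of all 17388 genes tested in that fit. Replicates 4 and 5, both among these pairs, resembled each other most of all replicates.

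**Figure D2:**
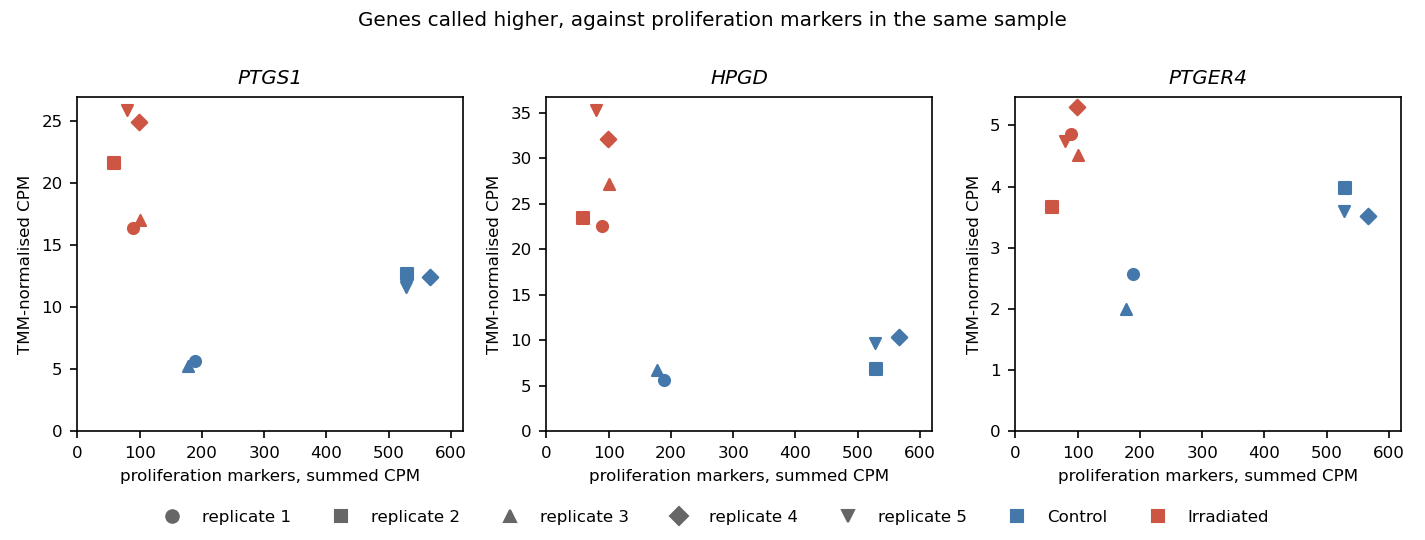
TMM-normalised CPM of PTGS1, HPGD and PTGER4 (y axes, from 0) against the summed CPM of 8 proliferation markers in the same sample (x axis), with colours for group and symbols for replicate number. The irradiated samples lie at 58.5 to 101 CPM of the marker sum, control replicates 1 and 3 at 189 and 178 CPM, and the other control samples at 528 to 567 CPM.

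Markers of some other cell types were higher in irradiated samples, at low levels apart from COL1A1. Endothelial markers, of which 3 of 4 had at least 200 counts, summed to 1.29 to 2.40 CPM in control and 4.15 to 6.07 CPM in irradiated samples, and the defining receptor gene KDR held 2 counts. The rise lay mainly in CDH5, the endothelial cadherin, with a log2 fold change of 2.48 (edgeR adjusted p = 0.000255), while PECAM1 gave 0.72 (adjusted p = 0.00519) and VWF -0.02 (adjusted p = 0.965). Fibroblast markers summed to 15.8 to 23.4 CPM in control and 28.4 to 39.9 CPM in irradiated samples, almost all from COL1A1, with 23 counts of COL1A2 and 49 of PDGFRB. Leucocyte markers summed to 0.664 to 0.917 CPM in control and 0.980 to 1.46 CPM in irradiated samples, with 3 counts of CD3E. The collecting duct pair AQP2 and SCNN1G summed to at most 0.269 CPM in either group, and SLC12A3 of the distal convoluted tubule reached 1.52 CPM. The part of these markers in the results for PTGS1, HPGD and PTGER4 was not tested.

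Levels of different genes were compared per kilobase of exon. The length was that of all annotated exons of a gene merged, which can exceed that of the transcripts present. The order between genes is therefore approximate. In control samples the order was PTGES3 (mean 51.0 CPM per kb), PTGES2 (11.5), PTGER2 (4.20), PTGS1 (1.65), HPGD (1.42), PTGER4 (0.884), PLA2G4A (0.660), PTGES (0.379), PTGIS (0.0160) and PTGS2 (0.00158). PTGES3, PTGES2, PTGER2 and PTGES were each clear of the next gene down, in that their lowest sample was above its highest, and the other neighbours overlapped. In irradiated samples HPGD came after PTGES3 and PTGES2 at 5.08 CPM per kb, above PTGER2 at 4.27 and PTGS1 at 3.66, and the values of HPGD overlapped those of PTGER2, as those of PTGER2 did those of PTGS1. PTGS1 was clear of PTGER4 (1.30) and PTGER4 of PLA2G4A (0.694), which in control samples were not separate. PTGES3 at 55.2 and PTGES2 at 11.5 were again the most abundant, and PTGES (0.454), PTGIS (0.0111) and PTGS2 (0.00605) came last.

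**Figure D3:**
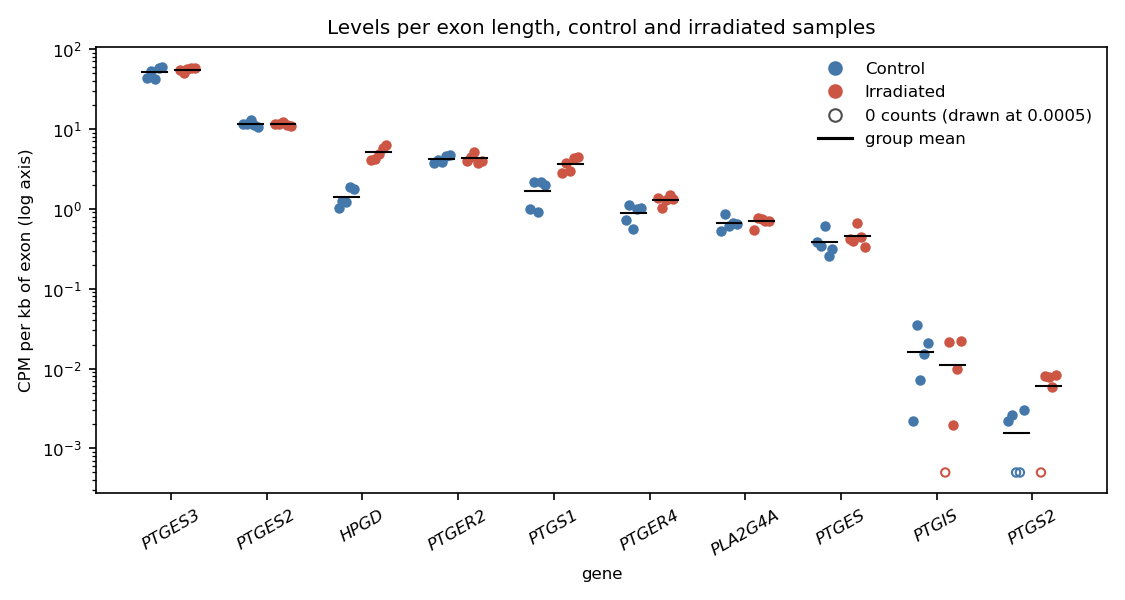
CPM per kilobase of exon (log axis) of the 10 prostaglandin genes, with 1 point per sample, bars at the group means and open circles for samples with 0 counts, drawn at the bottom of the axis. PTGES3 lies near 51.0 and 55.2 CPM per kb in the groups, HPGD moves from 1.42 to 5.08, and PTGIS and PTGS2 lie at the bottom.

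Ratios of members within a sample do not depend on scaling between samples, and 4 were compared as log2 of counts with 0.5 added, without division by length. An exact two-sided permutation test within the 5 pairs has 32 sign assignments, so the smallest p it can give is 0.0625 and 0.05 cannot be reached. The ratio of PTGES to HPGD, a synthase to the inactivating enzyme, was -2.97, -3.39, -2.56, -4.42 and -4.04 in control and -4.81, -4.96, -4.42, -5.23 and -5.79 in irradiated replicates. It was lower in 5 of 5 pairs, with a mean difference of -1.57 ± 0.43 (SD, n = 5, exact p = 0.0625, adjusted over the 4 ratios 0.125), and all irradiated values lay below all control values, although irradiated replicate 3 and control replicate 4 differed only past the second decimal. The ratio of PTGES to PTGES2, the inducible to the steady synthase, was higher in 5 of 5 pairs by 0.28 ± 0.30 (exact p = 0.0625, adjusted 0.125), with overlapping groups. The ratio of PTGER4 to PTGER2 was higher in 4 of 5 pairs by 0.57 ± 0.46 (SD, n = 5, exact p = 0.125, adjusted 0.167), also with overlap. The ratio of PTGS2 to PTGS1 gave a difference of 0.23 ± 2.15 (SD, n = 5, exact p = 0.812), which the 0 counts of PTGS2 make unreliable.

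The wider pathway was read from 7 lists of 63 genes in all. Of these 50 could be tested, 14 were higher (28%) and 13 lower (26.0%), and 23 did not pass the threshold, shares close to the 23.9% and 22.7% of all genes. Their median log2 fold change was 0.02.

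Release and recycling of arachidonate had 5 genes higher and 3 lower of 12 tested. PLA2G4C, a calcium-independent cytosolic phospholipase A2, changed most, from 0.320 ± 0.144 to 2.50 ± 0.558 CPM (SD, n = 5, log2 fold change 2.98, SE 0.30, edgeR adjusted p = 0.000224), with all irradiated samples above all controls. The diacylglycerol lipase genes went opposite ways. DAGLB rose from 23.3 ± 1.29 to 39.7 ± 4.74 CPM (log2 fold change 0.76, edgeR adjusted p = 9.9e-05) and DAGLA fell from 22.3 ± 5.68 to 13.1 ± 1.18 CPM (log2 fold change -0.74, adjusted p = 0.000479). The secreted phospholipase genes PLA2G2A and PLA2G5 had 0 counts in all 10 samples and PLA2G10 had 123, whereas PLA2G12A, also secreted, stood at 32.6 ± 5.52 and 31.7 ± 2.64 CPM (log2 fold change -0.03, adjusted p = 0.713).

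Other prostanoid synthases had 2 genes higher and 2 lower of 5 tested. AKR1C3, an aldo-keto reductase that forms prostaglandin F2 alpha, fell from 107 ± 22.5 to 58.7 ± 11.9 CPM (log2 fold change -0.87, edgeR adjusted p = 0.00203). AKR1B1, aldose reductase, which also forms prostaglandin F2 alpha, rose from 633 ± 120 to 840 ± 110 CPM (log2 fold change 0.42, adjusted p = 0.00213), with overlapping groups. PRXL2B, another prostamide and prostaglandin F synthase, rose from 57.1 ± 3.45 to 91.2 ± 11.8 CPM (log2 fold change 0.67, adjusted p = 0.0011), and 13.4% of its exon length lies under the opposite strand. The prostaglandin D synthase genes PTGDS and HPGDS held 8 and 17 counts. Members of the F branch thus went both ways.

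Transport and inactivation outside HPGD had 1 gene higher and 1 lower of 5. The exporter gene ABCC4 was higher, at 231 ± 35.6 and 271 ± 25.8 CPM (log2 fold change 0.24, edgeR adjusted p = 0.00737), a call lost without the replicate block (adjusted p = 0.115). PTGR3, a prostaglandin reductase gene, was lower, at 28.5 ± 1.59 and 24.3 ± 1.61 CPM (log2 fold change -0.23, adjusted p = 0.00653). SLCO2A1, the prostaglandin importer, and the reductase genes PTGR1 and PTGR2 did not pass the threshold.

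Of the 7 other prostanoid receptor genes only PTGFR and PTGER1 had 200 counts. PTGFR, the receptor for prostaglandin F2 alpha, was lower, at 6.90 ± 0.799 and 5.80 ± 1.34 CPM (log2 fold change -0.27, SE 0.09, edgeR adjusted p = 0.0492). That call was lost without the replicate block (adjusted p = 0.227) and without replicate 2, 3, 4 or 5 (0.119, 0.059, 0.112 and 0.135). Neither of the 2 tested genes was higher, at an unadjusted p under 0.05 or with DESeq2 either, both counts being 0. Because 2 genes are too few to compare with the 23.9% higher among all tested genes, no conclusion is drawn. Per kilobase of exon in control samples PTGER2 (4.20 CPM) exceeded PTGFR (1.2), PTGER4 (0.884) and the EP1 receptor gene PTGER1 (0.196). The EP3 receptor gene PTGER3 held 37 counts over all samples, PTGDR2 48, the thromboxane receptor gene TBXA2R 18, the prostacyclin receptor gene PTGIR 5 and PTGDR 2.

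Cyclic AMP signalling below EP2 and EP4 had 3 genes higher and 4 lower of 13 tested. The adenylyl cyclase gene ADCY3 fell from 21.1 ± 4.34 to 12.1 ± 1.67 CPM (log2 fold change -0.79, edgeR adjusted p = 8.7e-05) and PRKACA, a catalytic subunit of protein kinase A, from 86.1 ± 4.80 to 63.3 ± 1.31 CPM (log2 fold change -0.44, adjusted p = 0.000142). ADCY7, another adenylyl cyclase gene, rose from 10.8 ± 2.34 to 15.7 ± 2.13 CPM (log2 fold change 0.55, adjusted p = 0.0185), a call lost without replicate 1 (0.0588) or 5 (0.0509). Exons of the opposite strand lie over 24.4% of ADCY3 and 41.8% of ADCY7 exon length, and reads there may have been left uncounted. Of the targets that cyclic AMP induces, SIK1, a kinase gene, was higher at 5.57 ± 1.27 and 7.43 ± 0.514 CPM (log2 fold change 0.44, adjusted p = 0.0131). NR4A1 and NR4A2 did not pass the threshold, and NR4A3 was not tested, with 143 counts. PER1 (log2 fold change -0.19, edgeR adjusted p = 0.159) and CREM (-0.07, adjusted p = 0.344), also on this list, did not pass either. CREB1, the transcription factor gene, was higher by a log2 fold change of 0.16 (adjusted p = 0.0149). SIK1, CREB1, PER1 and CREM are named after their values were seen.

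The other arachidonate oxygenase branches had 3 genes higher and 1 lower of 8 tested. ALOX5AP, which presents arachidonate to the leukotriene-forming lipoxygenase, rose from 0.0678 ± 0.0369 to 0.449 ± 0.197 CPM (log2 fold change 2.67, SE 0.33, edgeR adjusted p = 0.000518), while the lipoxygenase gene ALOX5 did not pass the threshold. ALOX5AP had 242 counts in all, 36 in control and 206 in irradiated samples, so it met the 200-count minimum only through the irradiated group. The epoxygenase gene CYP2J2 rose from 4.14 ± 0.503 to 7.23 ± 0.427 CPM (log2 fold change 0.81, adjusted p = 0.000764). EPHX1, an epoxide hydrolase gene, fell from 84.6 ± 14.8 to 55.0 ± 5.14 CPM (log2 fold change -0.61, adjusted p = 0.00123). EPHX2, the soluble epoxide hydrolase gene, went the other way, from 6.19 ± 0.651 to 8.08 ± 0.563 CPM (log2 fold change 0.39, adjusted p = 0.00305), and is named after its values were seen. ALOX15 and ALOX15B held 16 and 12 counts.

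**Figure D4:**
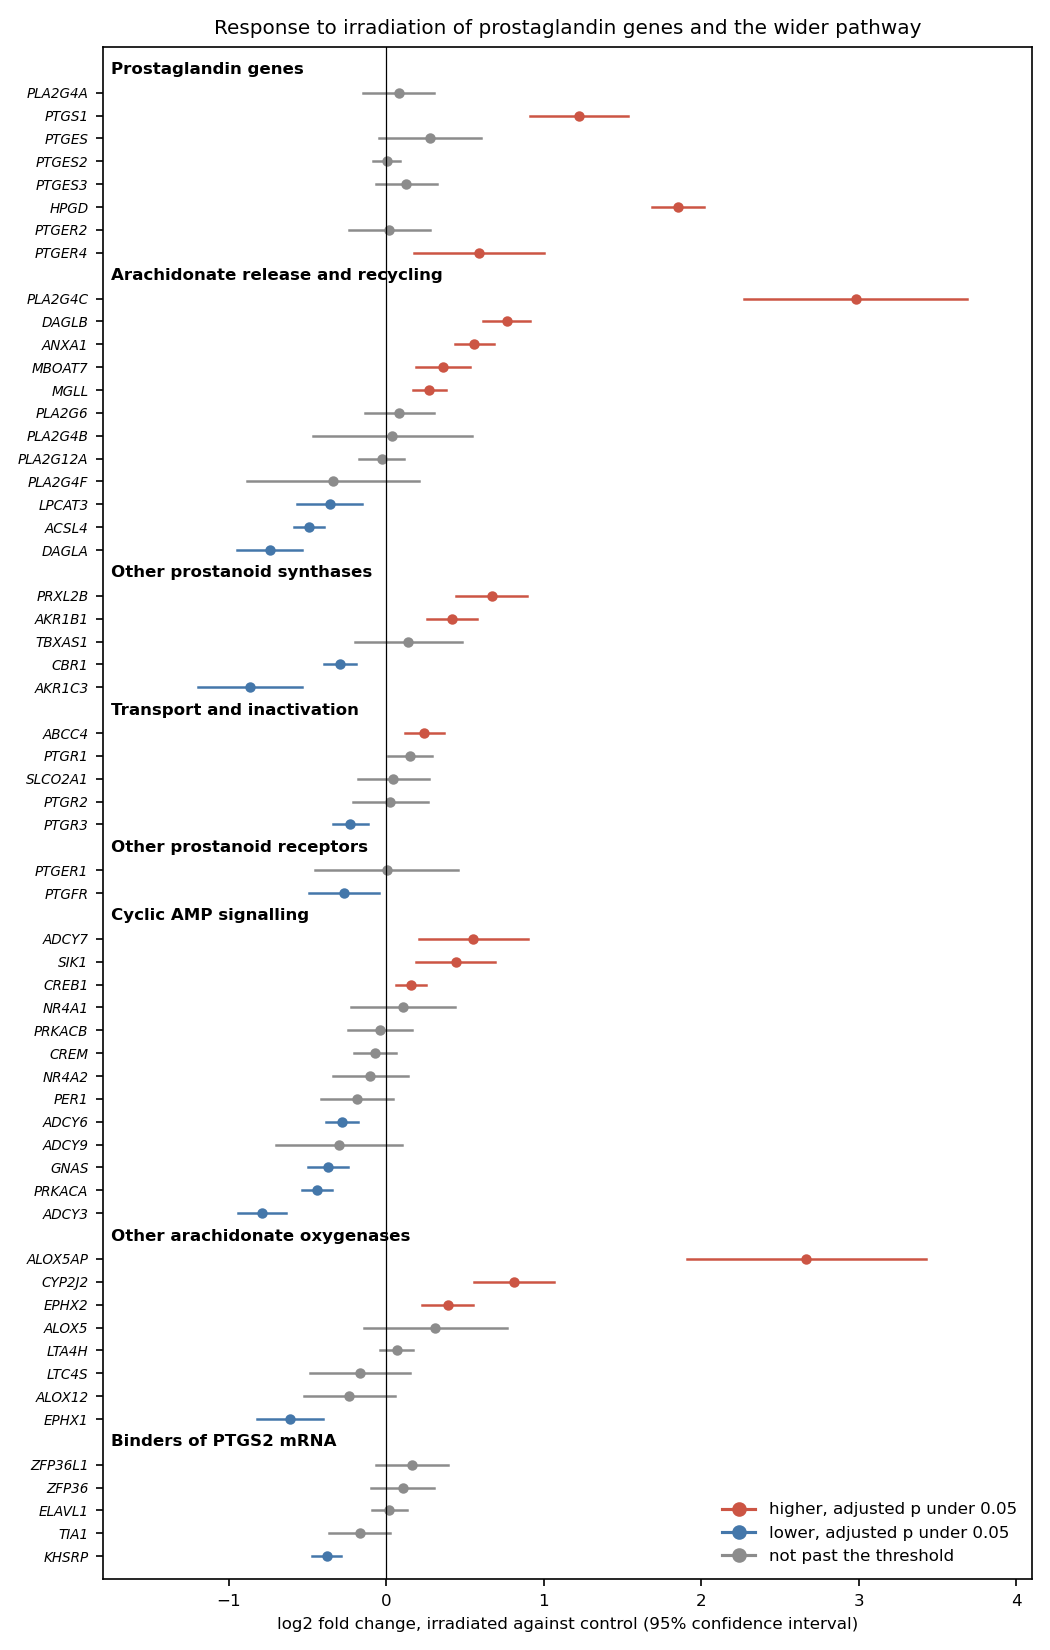
Fitted log2 fold changes of irradiated against control (x axis) with 95% confidence intervals for the 8 tested prostaglandin genes and the 50 tested genes of the 7 wider lists, coloured by call. PTGS1, PTGER4 and HPGD are coloured as higher at 1.22, 0.59 and 1.85, PLA2G4C lies furthest to the right at 2.98, and every list of synthases, release, transport and cyclic AMP genes holds calls in both directions.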

How the data were processed

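Bulk RNA-seq counts of 5 Control and 5 Irradiated samples were used, grouped by the treatment label. Adapters were removed by the authors with Trim-Galore, who aligned paired-end reads to GRCh38 (GENCODE) with STAR and counted genes in the same run. The deposited values are raw counts, whole numbers that had been neither normalised nor filtered. The annotation release and the strand setting are not given in the sources used here, and the sources name different library kits. Strand was checked on protein-coding genes buried under exons of the other strand: 17 of 17 had 0 counts, whereas 10.7% of 12742 genes free of such overlap did. Counts are therefore treated as unstranded, and reads on overlapping genes as uncounted. A symbol was found for 61415 identifiers. Coordinates and exon lengths came from a GENCODE annotation of GRCh38, and start-site windows from RefSeq on GRCh38.p14, which held 13 for the members and none for PTGIS.

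Depth ranged from 66269311 to 131555873 counts. Precision follows the replicate spread, save for genes near the minimum of 200 counts, and intervals on counts cover counting error only. The main model was edgeR 4.0.16 in R 4.3.3 (TMM, glmQLFit, glmQLFTest), with a minimum of 200 counts summed over samples, replicate number as a block as in the study's model, Benjamini-Hochberg adjustment over 19006 genes and a threshold of 0.05. TMM factors lay between 0.915 and 1.06. Deviations of same-numbered samples from their group means correlated at 0.22 to 0.51 for the 5 numbers, which were therefore taken to pair the samples, against -0.35 to 0.32 for different numbers. Counts of any pair of replicates differed beyond sampling noise, so all were kept. Replicates 4 and 5 resembled each other most: their chi-square per gene was 11.7 (Control) and 6.83 (Irradiated), and the remaining pairs ranged from 42.2 to 163 and from 30.9 to 71.2. Ratios were tested by exact permutation in Python 3.11.15 and figures drawn with matplotlib 3.10.9. The fitting was tested on simulated data with 200 changed genes. The simulated counts had the same dispersion for every gene, no replicate effect and far fewer changed genes than were called here. That run checks the code and does not measure the error rate in these data.

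Alternatives were DESeq2 1.42.0, upper-quartile scaling, no composition factor (library size only), a minimum lowered to 1 count, filterByExpr, treatment without the replicate block, each replicate number left out in turn, a prior count of 2 for the ratios and, chosen after seeing the data, pairs 2, 4 and 5 only. All 10 members are named. Of each wider list, up to 3 genes with the largest absolute log2 fold change past the threshold are named, and genes with few counts are stated with them, while a few others are named after their values were seen. Genes most like HPGD were sought because it was the member with the largest change. The result of 1 marker list is not reported here. The members and lists were chosen with earlier results of these data known.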

Additional observations from a re-analysis of the deposited data

Results flagged for a closer look

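In 4 of the 52 groups of 5 samples examined, 1 sample lay far from the other 4 by Dixon's 95% critical value, where chance gives about 2.6 (1 in 20 groups). PTGS2 in irradiated replicate 1 stood at 0 CPM against 0.0327 to 0.0452 CPM in the other irradiated samples, which is 0 counts against 3 or 4. The other 3 were in control replicate 3. AKR1C3, a prostaglandin F synthase gene, stood at 147 CPM there against 94.8 to 101 CPM in the other control samples. AKR1B1, the aldose reductase gene, stood at 842 CPM against 554 to 625 CPM. ADCY7, an adenylyl cyclase gene, stood at 6.72 CPM against 11.4 to 12.5 CPM. The other 9 prostaglandin genes showed no such sample. Without replicate 3 and its irradiated partner, AKR1C3, AKR1B1 and ADCY7 kept their direction and their call.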

How the results depend on the processing

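The calls for PTGS1 and HPGD held under every alternative run, with log2 fold changes from 0.96 to 1.35 and from 1.74 to 1.91. PTGER4 ranged from 0.28 to 0.77, with adjusted p from 0.00412 with DESeq2 to 0.158 with pairs 2, 4 and 5 only. PTGES2 and PTGER2, which did not pass the threshold in any setting, changed sign around 0, and the cause was not tested. PTGES2 gave a log2 fold change of -0.00065 with DESeq2, -0.031 with upper-quartile scaling, -0.074 with library size only, -0.033 with a minimum of 1 count, -0.0041 with filterByExpr, and -0.00048 to 0.023 with a replicate number left out. PTGER2 gave -0.014 with upper-quartile scaling, -0.058 with library size only, -0.017 with a minimum of 1 count, -0.16 with pairs 2, 4 and 5 only, and -0.081 to 0.096 with a replicate number left out. PTGES3 turned to -0.056 with pairs 2, 4 and 5 only. The log2 ratio of PTGS2 to PTGS1 changed sign to -0.27 with a prior count of 2 and ranged from -0.22 to 1.13 with a replicate number left out. Leaving out a replicate number gave 2 to 3 members higher and 0 lower, 11 to 17 wider genes higher and 12 to 13 lower, and 3557 to 4605 of all genes higher and 2943 to 4047 lower. ALOX5AP fell below the 200-count minimum without replicate 1, 3, 4 or 5 and with pairs 2, 4 and 5 only.

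Without the replicate block 3 members were higher and 0 lower, 12 wider genes were higher and 12 lower, and 3640 of all genes were higher and 3366 lower. The calls of ABCC4 and PTGFR, given above, were lost without the block. The ratio of PTGES to HPGD, with a difference of -1.57, had an adjusted exact p of 0.0317 when the test ignored the pairing. Without pairing the smallest exact p is 0.00794, against 0.0625 within pairs, so that change of side comes with the resolution of the test. With library size only, all genes split into 3609 higher and 5894 lower, against 4550 and 4307 with TMM, and the median log2 fold change moved from -0.0098 to -0.0859. Single genes and ratios, counts of genes left aside, kept their direction and their side of the threshold in 160 of 175 comparisons with another setting and in 122 of 136 with a replicate number left out. For ratios tested within pairs that side was fixed in advance. Their smallest exact p is 0.0625 with all pairs and 0.125 with a replicate number left out. These tallies therefore overstate how stable the ratios are. Low counts limit PTGS2 and PTGIS, whose log2 fold changes exist only in the fit with a minimum of 1 count.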

Other observations

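Other genes of the wider lists passed the test without being among the 3 largest changes of their list, and are named here after their values were seen. ANXA1, annexin A1, which restrains phospholipase A2, rose from 306 ± 31.8 to 453 ± 70.4 CPM (SD, n = 5, log2 fold change 0.56, edgeR adjusted p = 0.000151), with all irradiated samples above all controls. MGLL, the monoacylglycerol lipase gene, rose from 366 ± 12.2 to 443 ± 33.5 CPM (log2 fold change 0.27, adjusted p = 0.00206), also without overlap. ACSL4, which attaches coenzyme A to arachidonate, fell from 260 ± 22.3 to 185 ± 20 CPM (log2 fold change -0.49, adjusted p = 9.7e-05). The reacylation genes went opposite ways, MBOAT7 with a log2 fold change of 0.36 (adjusted p = 0.00579) and LPCAT3 with -0.36 (adjusted p = 0.0126), but 66.0% of LPCAT3 exon length lies under the opposite strand. GNAS, the stimulatory G protein subunit to which EP2 and EP4 couple, fell from 1096 ± 69.8 to 846 ± 25.8 CPM (log2 fold change -0.37, adjusted p = 0.00108). Of the nuclear receptor genes that cyclic AMP induces, NR4A3 had 143 counts, and in the fit with a minimum of 1 count its log2 fold change was 1.13 (SE 0.31, edgeR adjusted p = 0.00883).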
